A study of Mus musculus with 23 samples.

Results

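The distal regions gained with LPS were 1092 stretches of chromatin in mouse striatal microglia that carried an ATAC-seq peak in nearly every library from LPS-injected mice and in few or none from saline-injected mice. They were chosen by presence of a peak alone. From each of 23 libraries an equal number of peaks with the highest −log10 p, just under the 33949 of the shortest list, was taken and merged on chromosomes 1 to 19 and X, and a library was called open at a merged interval if 1 of those peaks overlapped it. A region was kept if at least 10 of the 12 LPS libraries and no more than 2 of the 11 saline libraries were open there and it had no end of a protein-coding gene (GRCm38) within 1 kb. These 1092 regions came from 71467 merged intervals, of which 55801 were distal by the same 1 kb criterion, so that 1.96% of distal intervals met the rule. Because LPS against saline chose the regions, every such contrast is given as a description without a test.

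ATAC-seq cuts DNA with the Tn5 transposase wherever chromatin is accessible, and a peak marks a local excess of cuts. In bulk libraries a region open in more cells and a region more open in each cell cannot be told apart. The 4 groups were MIA_LPS (5 libraries) and CON_LPS (7 libraries), from LPS-injected offspring of maternal immune activation (MIA) and of control (CON) pregnancies, and MIA_SAL (6 libraries) and CON_SAL (5 libraries), from their saline-injected counterparts. All were males of 8 to 10 weeks. LPS (lipopolysaccharide, the outer-membrane component of Gram-negative bacteria) was injected intraperitoneally at 4500 endotoxin units per g body weight, and cells were taken 18 hours after LPS or saline. Live CD11b+, CD45-low, P2RY12+ cells of the striatum were sorted, between 10560 and 25000 per library. The labels used here do not say how the mothers were treated or whether a library held 1 animal or several. Some libraries share an identity number in their labels, whose meaning is not given, so spread between libraries may be partly technical.

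Distal accessible regions of macrophages are largely enhancers, stretches of DNA that bind transcription factors and act on genes at a distance. In macrophages, lineage factors such as PU.1 (an ETS-family protein), C/EBP proteins and RUNX1 keep enhancers accessible. TLR4, the LPS receptor, signals through NF-kB, AP-1 and interferon regulatory factors, and these open further sites. Microglia are the resident macrophages of the brain, and to LPS given outside the brain they respond largely through secondary signals. The nearest protein-coding gene is used below as a name for each region, within 100 kb where a gene count is given; it does not show which gene the region acts on.

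Few of the regions lay at an annotated transcription start, and the sequences of some that did are shown here because bases were read at start windows only. A window need not lie wholly inside its region. In RefSeq's GRCm38.p6 table of 32851 start windows, each running from 250 bases before to 50 after a start, 23 windows overlapped 21 of the 1092 regions (1.92%). The share was 1.29% among 389 distal intervals lost with LPS by the mirrored rule, 3.7% among all distal intervals, 10.1% among 13079 other distal intervals open in at least 10 LPS libraries and 14.5% among 7328 distal intervals open in all 23 libraries. Of these regions, 7 lay at internal starts of the protein-coding genes Hsd11b1, Il1rn, Sqor, Tmem268, Capg, Retreg1 and Cd80, and 14 at starts of long noncoding RNAs. Windows at 4 starts follow, 5′ to 3′ along the strand of transcription, with capitals at matches to AP-1 (TGANTCA), C/EBP (TTGCNNAA) or glucocorticoid receptor core (ACANNNTGT) letters.
Il1rn start, chr2:24345041-24345340, plus strand: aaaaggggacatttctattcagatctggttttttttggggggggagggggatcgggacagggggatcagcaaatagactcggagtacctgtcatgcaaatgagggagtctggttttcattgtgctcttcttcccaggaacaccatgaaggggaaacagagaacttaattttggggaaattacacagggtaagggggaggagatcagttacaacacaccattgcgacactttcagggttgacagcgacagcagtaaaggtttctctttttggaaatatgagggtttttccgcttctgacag
Retreg1 start, chr15:25940452-25940751, plus strand: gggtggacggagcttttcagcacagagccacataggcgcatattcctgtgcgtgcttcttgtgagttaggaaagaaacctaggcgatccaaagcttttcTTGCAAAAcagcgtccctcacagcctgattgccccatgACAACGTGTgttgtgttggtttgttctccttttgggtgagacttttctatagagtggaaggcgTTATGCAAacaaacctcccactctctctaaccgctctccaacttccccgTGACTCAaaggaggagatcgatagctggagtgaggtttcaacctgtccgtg
Cd80 start, chr16:38458683-38458982, plus strand: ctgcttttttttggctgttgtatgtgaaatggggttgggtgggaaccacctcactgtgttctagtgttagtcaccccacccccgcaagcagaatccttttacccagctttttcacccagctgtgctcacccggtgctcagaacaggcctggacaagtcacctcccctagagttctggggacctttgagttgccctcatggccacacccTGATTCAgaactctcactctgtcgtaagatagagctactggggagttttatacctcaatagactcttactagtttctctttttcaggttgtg
4930471E19Rik start, chr10:120636058-120636357, minus strand: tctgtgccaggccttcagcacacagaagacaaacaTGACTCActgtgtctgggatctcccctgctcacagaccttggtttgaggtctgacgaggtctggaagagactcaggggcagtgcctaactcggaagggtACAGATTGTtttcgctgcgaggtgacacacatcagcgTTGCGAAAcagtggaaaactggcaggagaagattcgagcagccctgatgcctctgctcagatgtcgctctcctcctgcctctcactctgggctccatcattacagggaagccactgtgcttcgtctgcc
Il1rn encodes the interleukin-1 receptor antagonist, Retreg1 an endoplasmic reticulum autophagy receptor, Cd80 a T cell costimulatory ligand, and 4930471E19Rik a long noncoding RNA. The Il1rn window held none of these matches, the Cd80 window held AP-1 letters alone, and the Retreg1 and 4930471E19Rik windows held all of these kinds.

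Among the 23 windows, counted with overlapping windows of the same gene, 7 (30.4%) held the AP-1 letters on either strand, against 7.20% of 1626 windows at other distal intervals open in at least 10 LPS libraries and 7.81% of all windows. C/EBP letters were in 30.4% of the windows at gained regions, 10.3% at the other distal intervals and 10.8% of all. The glucocorticoid receptor letters were in 21.7%, 4.86% and 6.85% of the same sets. An NF-kB pattern (GGGNNTTCC) was in 0 of 23 windows, in 7.26% at the other distal intervals and in 5.82% of all. ETS letters (GGAAGT) were in 39.1%, 28.1% and 23.8%, and STAT letters (TTCNNNGAA) in 13.0%, 7.20% and 8.30%. Further patterns were counted in the same sets. A longer ETS pattern, for PU.1, was in 0 of 23 windows, 4.49% and 3.2%. RUNX letters were in 17.4%, 13.4% and 16.8%, and those of the interferon-stimulated response element in 4.35%, 2.64% and 3.44%. CTCF letters were in 17.4%, 16.9% and 10.6%, E-box letters in 8.7%, 9.9% and 7.15%, and MEF2 letters in 0%, 1.66% and 2.72%. With 23 windows each match moved a share by over 4 points, and these shares are descriptions of the letters in these windows only. Letters were counted over whole windows, whose overlap with a gained region ran from 3 to 300 bases. Some counted letters can therefore lie outside the region.

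In the lists of equal length the regions at these starts had peaks in most LPS libraries and in few saline libraries. At Retreg1 (chr15:25940346-25941178) the authors' fold enrichment, the peak's signal over its local background, was 6.51, 5.89, 4.40, 4.95 and 9.06 in MIA_LPS libraries 1 to 5 and 3.67 to 7.61 with a median of 6.03 in CON_LPS libraries. The lists of equal length held no peak there in MIA_SAL or CON_SAL libraries. The Cd80 region (chr16:38458704-38459052) had 6.21, 5.65, 5.43, 4.64 and 8.02 in MIA_LPS libraries and 4.31 to 7.16 (median 5.96) in CON_LPS libraries, again with none after saline. The Il1rn region (chr2:24344988-24345538) had 5.86, 7.75, 4.91, 5.14 and 10.2 in MIA_LPS libraries and 3.96 to 7.08 (median 5.52) in CON_LPS libraries, and 1 CON_SAL library reached 6.96. At all 3, the MIA_LPS and CON_LPS values overlapped. Hsd11b1, the enzyme that regenerates active glucocorticoid, had a region (chr1:193242289-193242665) open in 3 of 5 MIA_LPS and 7 of 7 CON_LPS libraries. Counts at gained regions could not give a p below 0.152 by Fisher's exact test, so no difference is read from this split. Where open, the region had 7.48, 7.2 and 8.61 in MIA_LPS libraries 1, 4 and 5 and 5.4 to 7.16 (median 6.51) in CON_LPS libraries. With libraries centred, the log2 difference was −0.12.

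Microglial identity was present at gene ends in all groups. A peak lay within 1 kb of an end of 8 to 9 of 10 microglia marker genes in every library, and P2ry12, Tmem119, Cx3cr1, Siglech and Sall1 were open in all 23. Astrocyte markers were open at 0 to 3 of 8 genes, oligodendrocyte lineage markers at 1 to 2 of 9, endothelial markers at 1 to 3 of 8, lymphocyte markers at 1 to 2 of 9 and neuron markers at 2 to 5 of 10. Monocyte and neutrophil markers moved with LPS: 0 to 3 of 13 were open in MIA_LPS libraries and 1 to 3 in CON_LPS libraries, against 0 in all MIA_SAL and CON_SAL libraries. S100a8 was open in 4 of 5 MIA_LPS, 6 of 7 CON_LPS and 0 of 11 saline libraries, Mmp8 in 4, 5 and 0, Camp in 2, 3 and 0, and Cxcr2 in 0, 1 and 0. Ccr2, Ly6c2, S100a9, Ly6g, Ngp, Ltf, Retnlg and Mmp9 were open in none. Border-associated macrophage markers were open at 0 to 4 of 10 genes in MIA_LPS, 2 to 4 in CON_LPS, 0 to 2 in MIA_SAL and 0 to 3 in CON_SAL libraries, with F13a1 open in 4 of 5 MIA_LPS, 6 of 7 CON_LPS and 0 of 11 saline libraries and Cd163, Lyve1, Pf4 and Folr2 in none. In MIA_LPS, CON_LPS, MIA_SAL and CON_SAL libraries in turn, Siglec1 was open in 2, 5, 0 and 1. In the same order Ms4a7 was open in 3, 0, 0 and 0, and Cbr2 in 4, 7, 4 and 4. Stab1 was open in 0, 1, 1 and 2, and Mrc1 in 1, 1, 0 and 1. None of the 13 monocyte and neutrophil markers was the nearest gene of a gained region and 1 of the 10 border-associated macrophage markers (F13a1) was; the part of such cells in the gains was not tested.

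Each LPS library held most of the gained regions. The share open was 97.2%, 96.5%, 85.2%, 92.6% and 98.4% in MIA_LPS libraries 1 to 5 (94.0% ± 5.37, SD, n = 5) and ranged from 83.1% to 97.8% with a median of 93.8% in CON_LPS libraries (92.2% ± 5.20, n = 7). In MIA_SAL libraries it was 5.92% ± 3.23 (1.65% to 9.80%, n = 6) and in CON_SAL libraries 6.41% ± 1.66 (3.48% to 7.42%, n = 5). LPS and saline libraries did not overlap, which the rule required in large part. Other distal intervals were open at like shares in all groups, with 37.1% ± 1.98 in MIA_LPS, 35.7% ± 1.66 in CON_LPS, 37.4% ± 2.50 in MIA_SAL and 38.0% ± 2.60 in CON_SAL libraries. Lists of equal length keep these shares close, so their likeness is not read as a result.

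**Figure D1:**
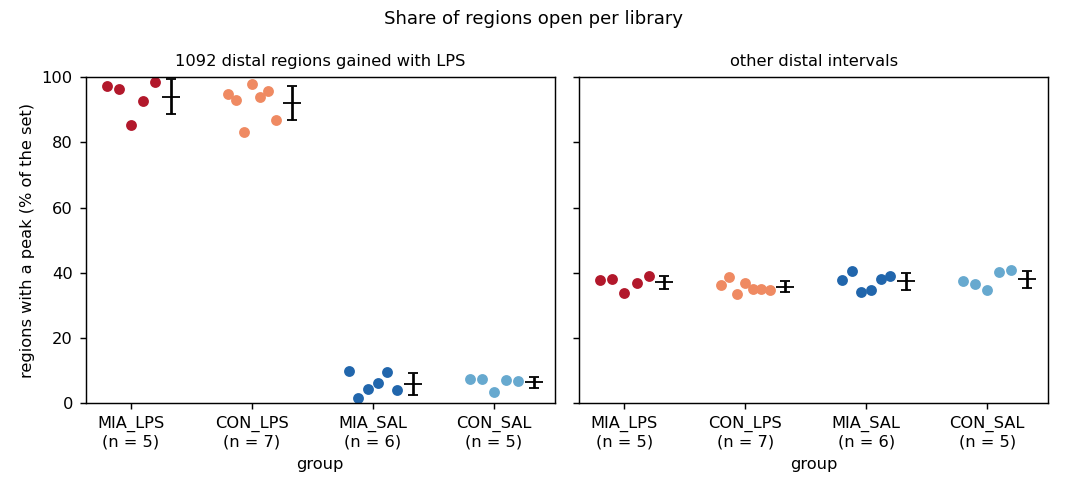
Percent of regions with a peak in each library (points) for the 1092 gained regions (left) and all other distal intervals (right), by group, with mean ± SD beside the points. At the gained regions the LPS libraries sit between 83.1% and 98.4% and the saline libraries between 1.65% and 9.80%, while at other distal intervals the 4 groups overlap between 33.6% and 40.9%. The rule parts the libraries on the left, and lists of equal length keep the shares on the right close.

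All 12 LPS libraries were open at 473 regions (43.3%), 11 at 309 and 10 at 310. No saline library was open at 594 regions (54.4%), 1 at 258 and 2 at 240. Complete separation, with all 12 LPS libraries open and none of the 11 after saline, held at 232 regions. Over all merged intervals 0.344% had it. Within MIA offspring, 551 regions (50.5%) were open in 5 of 5 MIA_LPS and 0 of 6 MIA_SAL libraries, a pattern found at 1.00% of merged intervals. Within CON offspring, 442 regions (40.5%) were open in 7 of 7 CON_LPS and 0 of 5 CON_SAL libraries, a pattern found at 0.690% of merged intervals. The rule used both contrasts, so nothing is read from these counts.

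The missing peaks were unevenly spread over the LPS libraries. Of 929 cases in which an LPS library lacked a peak at a gained region, 162 fell in MIA_LPS 3, 185 in CON_LPS 3 and 142 in CON_LPS 7. These 3 libraries, the LPS libraries with identity numbers 1 to 3, together held 489 of the 929 (52.6%). They were among the 6 LPS libraries from fewer than 20000 sorted cells. Among libraries of the same identity number, 6 pairings of an LPS with a saline library had 79.8% to 94.9% of the gained regions open in the LPS library only and 0 to 8 regions open in the saline library only.

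**Figure D2:**
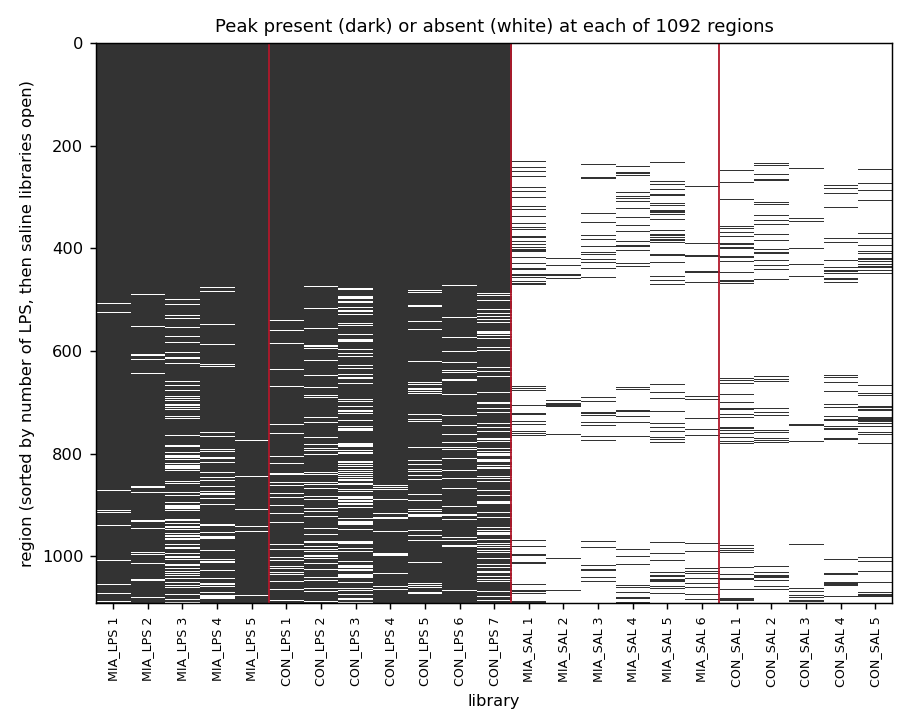
Presence (dark) or absence (white) of a peak at each of the 1092 gained regions (rows, sorted by the number of LPS and then saline libraries open) in each of the 23 libraries (columns, groups parted by red lines). White gaps in the LPS columns are densest in MIA_LPS 3, CON_LPS 3 and CON_LPS 7, and the dark marks in the saline columns come to 738 in all.

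Weaker peaks were present at many of the gained regions after saline. In the full deposited lists, before they were cut to equal length, 232 regions (21.2%) had no peak in any saline library, 480 (44.0%) had one in at most 2 and 129 (11.8%) in more than 5. These 232 are not the set of equal size with complete separation in the equal lists, and 94 regions were in both. The share of regions with a saline peak in the full lists was 5.59% to 67.4% in MIA_SAL libraries and 6.23% to 50.5% in CON_SAL libraries, highest in MIA_SAL 2, whose list was the longest of all with 68312 peaks. The LPS libraries' shares in their full lists were 85.2% to 100% in MIA_LPS and 86.3% to 99.4% in CON_LPS. Lists ran from 33949 peaks to 68312, and since the files give no read counts the depth is unknown.

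The gained regions were of middling strength. Among the ranked peaks of the equal lists (rank 1 is the strongest), their median rank per library averaged 19984 ± 1146 in MIA_LPS and 21085 ± 621 in CON_LPS libraries, and the peaks found after saline ranked 29674 ± 1880 in MIA_SAL and 29624 ± 796 in CON_SAL libraries. The median fold enrichment at gained regions was 0.763 ± 0.0331 of that at distal intervals open in all 23 libraries in MIA_LPS, and 0.746 ± 0.0148 in CON_LPS libraries. The regions' median width was 448 bp, against 654 bp for distal intervals open in all 23 libraries and 400 bp for 389 distal intervals lost with LPS by the mirrored rule. Merged width grows with the number of libraries that carry a peak. Summits of the LPS libraries' peaks lay close together, with a median SD of 37.6 bp per region.

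The set was led by 12 regions, chosen as those open in all LPS and no saline library with the best median rank over LPS libraries, 1 per nearest gene. The strongest (chr2:32867426-32867886) lay 8248 bp from an end of Niban2 and had a fold enrichment of 14.6, 12, 10.3, 11.2 and 18.9 in MIA_LPS libraries 1 to 5 and 7.74 to 11.7 (median 11.0) in CON_LPS libraries. A region 16017 bp from Azin1 (chr15:38535311-38535758), which encodes an inhibitor of the antizyme that degrades ornithine decarboxylase, had 12.3, 10.2, 9.12, 12.7 and 13.6 in MIA_LPS and 8.05 to 11.2 (median 9.28) in CON_LPS libraries. At both, values of the groups overlapped and MIA_LPS 5 was highest, as it was for fold enrichment at the gained regions in general (median 9.31, against 4.54 to 6.69 in the other LPS libraries). This was not particular to gained regions: at distal intervals open in all 23 libraries its median was 12.1, against 6.04 to 8.39. The centred log2 difference, MIA_LPS minus CON_LPS, was 0.06 at Niban2 and 0.03 at Azin1.

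Regions by Dusp1, Aoah and Smpdl3b were among the 12. Dusp1 encodes a phosphatase that switches off MAP kinases. The Dusp1 region (chr17:26514560-26515224, 6088 bp from the gene) had a fold enrichment of 7.82, 6.25, 7.15, 7.76 and 9.73 in MIA_LPS and 4.42 to 8.06 (median 5.97) in CON_LPS libraries. Aoah encodes the hydrolase that removes acyl chains from LPS, and the region 5678 bp from it (chr13:20787926-20788425) had 8.16, 9.10, 6.35, 6.75 and 12.8 in MIA_LPS and 4.89 to 7.94 (median 7.22) in CON_LPS libraries. Smpdl3b encodes a membrane-anchored phosphodiesterase that dampens Toll-like receptor signalling in mouse macrophages. The region inside it (chr4:132748709-132749100) had 7.14, 7.49, 4.61, 6.35 and 9.94 in MIA_LPS and 4.89 to 8.16 (median 6.54) in CON_LPS libraries. Groups overlapped at all of these. With libraries centred, the log2 difference, MIA_LPS minus CON_LPS, was 0.04 at Dusp1, 0.04 at Aoah and −0.19 at Smpdl3b.

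Others lay by receptors, transcription factors and structural genes. Tlr2, the receptor for bacterial lipoproteins, had a region 2937 bp away (chr3:83844761-83845531) with 7.10, 5.08, 6.79, 5.67 and 6.86 in MIA_LPS and 5.15 to 6.48 (median 5.59) in CON_LPS libraries. In Irf2, which encodes an interferon regulatory factor, a region (chr8:46811209-46811642) had 10.4, 10.1, 6.56, 10.4 and 18.2 in MIA_LPS and 8.01 to 10.1 (median 9.07) in CON_LPS libraries. The groups overlapped at both. The region in Ahnak (chr19:8997494-8997924), which encodes a giant scaffold protein, had 10.7, 7.87, 8.79, 10.4 and 14.7 in MIA_LPS and 5.32 to 9.32 (median 7.74) in CON_LPS libraries, and that in Dab2 (chr15:6411217-6411854), an endocytic adaptor, had 12, 9.21, 5.87, 9.64 and 15.1 in MIA_LPS and 6.39 to 11.4 (median 9.73) in CON_LPS libraries. Regions near Gcm1, Slfn8 and Tnfrsf8 (the receptor CD30) completed the 12, with medians over the LPS libraries of 9.35, 10.6 and 6.85. In the full lists 4 of these 12 regions (Gcm1, Slfn8, Irf2 and Tnfrsf8) had no saline peak. With libraries centred, the log2 difference, MIA_LPS minus CON_LPS, was −0.13 at Tlr2, −0.06 at Irf2, 0.22 at Ahnak and −0.17 at Dab2.

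**Figure D3:**
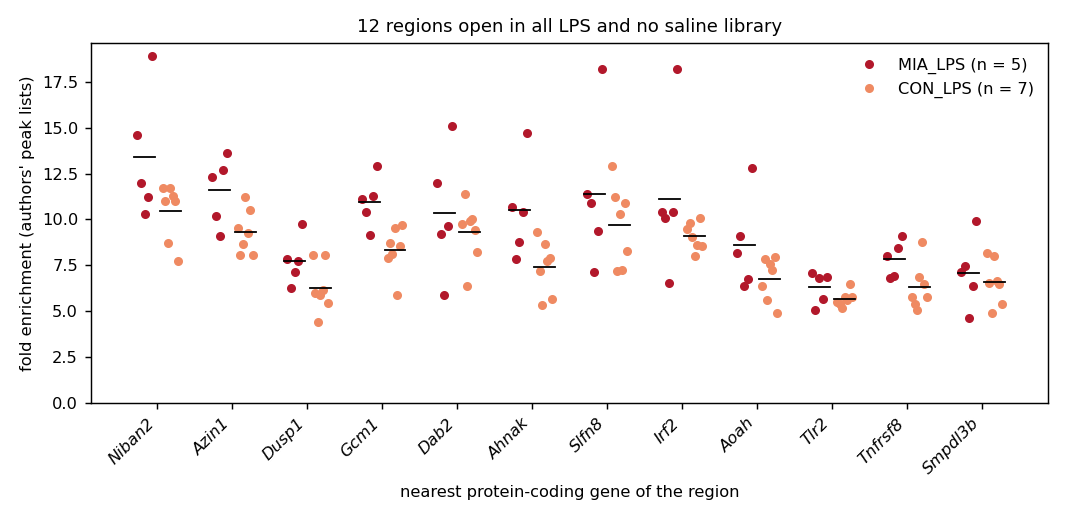
Fold enrichment from the authors' peak lists at the 12 leading regions in each MIA_LPS (left of each pair) and CON_LPS library (right), with bars at group means; no saline library had a peak in its list of equal length at these regions. Values of the groups overlap at every region shown, and the tallest point is MIA_LPS 5 at most of them.

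Genes of LPS signalling stood beside gained regions. In all, 993 of the 1092 regions lay within 100 kb of an end of a protein-coding gene and named 847 genes, 3.92% of the 21627 annotated. Only 12230 genes were nearest to any distal interval within 100 kb. Among genes that could be named, the share is thus higher than 3.92%. Of 28 genes of TLR4 signalling, 5 (17.9%) were nearest to 6 regions: Tlr4, Irak2, Traf3, Map3k8 and Ikbke. The receptor gene Tlr4 had a region 1193 bp inside its end (chr4:66828744-66828981) with a fold enrichment of 7.32, 6.56, 5.20, 5.78 and 10.6 in MIA_LPS, 3.76 to 6.94 (median 6.01) in CON_LPS, no peak in MIA_SAL and 4.85 and 3.77 in 2 CON_SAL libraries. Ikbke encodes a kinase upstream of interferon regulatory factors. The region in it (chr1:131276645-131277312) had 8.68, 6.99, 6.07, 8.69 and 10.8 in MIA_LPS and 4.00 to 9.09 (median 5.98) in CON_LPS libraries, against 3.34 in 1 CON_SAL library. Traf3, an adaptor that restrains noncanonical NF-kB signalling, held 2 regions, and the stronger (chr12:111181886-111182306) had 8.59, 6.64, 5.40, 8.34 and 12.2 in MIA_LPS and 4.71 to 6.99 (median 5.71) in CON_LPS libraries. In the full lists the Tlr4, Ikbke and stronger Traf3 regions each had a peak in 4 of the 11 saline libraries. Their centred log2 differences, MIA_LPS minus CON_LPS, were 0.01, 0.15 and 0.13.

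Among 42 NF-kB and acute inflammatory genes, 11 (26.2%) were nearest to 15 regions: Il1b, Nfkb1, Nfkbia, Ccl2, Nos2, Socs3, Cd80, Cd83, Il1rn, Traf1 and Il12b. Nfkbia encodes IκBα, the inhibitor that holds NF-kB in the cytoplasm and that NF-kB itself induces. Its region (chr12:55466211-55467371, 22038 bp away) was among the widest at 1161 bp, with 9.09, 7.14, 8.67, 9.18 and 10.1 in MIA_LPS and 5.07 to 9.02 (median 7.16) in CON_LPS libraries, against 4.73 in 1 CON_SAL library. At Nos2, the inducible nitric oxide synthase, a region 4087 bp away (chr11:78916368-78916700) had 8.64, 7.64, 5.41, 8.22 and 14.6 in MIA_LPS and 4.07 to 7.71 (median 5.96) in CON_LPS libraries, and no saline peak in the full lists. Il12b encodes the shared p40 subunit of interleukins 12 and 23, and its region (chr11:44389942-44390628) had 10.4, 11.4, 6.93, 6.27 and 13.3 in MIA_LPS and 5.69 to 11.0 (median 7.33) in CON_LPS libraries, against 4.99 in 1 MIA_SAL library. At all 3 the LPS groups overlapped. In the full lists the Nfkbia and Il12b regions each had a peak in 7 of the 11 saline libraries. The centred log2 difference, MIA_LPS minus CON_LPS, was 0.04 at Nfkbia, 0.18 at Nos2 and −0.0 at Il12b.

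Myeloid transcription factors had the highest share, with 9 of 30 genes (30.0%) nearest to 12 regions: Irf8, Runx1, Fos, Fosl2, Klf2, Bcl6, Nr3c1, Rxra and Ets2. Fosl2, a subunit of AP-1, had a region 34226 bp away (chr5:32192066-32192482) with 9.44, 8.41, 6.18, 9.87 and 13.4 in MIA_LPS and 5.20 to 8.10 (median 6.42) in CON_LPS libraries and no peak in the equal lists of the saline libraries. In Runx1 a region (chr16:92620591-92621240) had 11.6, 7.80, 5.87, 13.0 and 14.9 in MIA_LPS and 5.43 to 10.6 (median 6.72) in CON_LPS libraries, against 4.09 in 1 MIA_SAL and 3.89 in 1 CON_SAL library. The stronger of 2 regions by Fos (chr12:85524466-85525014), another AP-1 subunit, had 7.63, 6.73, 5.07, 6.93 and 8.14 in MIA_LPS and 5.22 to 7.56 (median 5.73) in CON_LPS libraries, against 4.09 in 1 MIA_SAL and 5.54 in 1 CON_SAL library. In the full lists these Fosl2, Runx1 and Fos regions had a peak in 2, 8 and 4 of the 11 saline libraries. Their centred log2 differences, MIA_LPS minus CON_LPS, were 0.25, 0.25 and −0.08.

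In the glucocorticoid response list 4 of 16 genes (25.0%), Nr3c1, Dusp1, Ddit4 and Nfkbia, were nearest to 7 regions. Nr3c1 encodes the glucocorticoid receptor, and a region inside it (chr18:39445998-39446325) had 8.13, 7.34, 4.62, 8.02 and 12.9 in MIA_LPS and 5.76 to 8.36 (median 6.90) in CON_LPS libraries. Disease-associated microglia genes, a programme described in mouse models of neurodegeneration, were represented by Lpl, Ctsd, Csf1, Ch25h, Ank, Timp2 and Cd36, 7 of 25 (28.0%) with 10 regions. Lpl encodes lipoprotein lipase, and the region 19306 bp from it (chr8:68926238-68926917) had 9.29, 9.03, 6.10, 7.27 and 12.4 in MIA_LPS and 5.92 to 9.02 (median 6.72) in CON_LPS libraries. Neither of these 2 regions had a peak in the equal lists of the saline libraries. Centred log2 differences, MIA_LPS minus CON_LPS, were −0.07 at the Nr3c1 region and 0.01 at the Lpl region.

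Other lists had lower shares, though that of actin, adhesion and migration genes (16.7%) was close to that of TLR4 signalling (17.9%). Actin, adhesion and migration genes were nearest to regions at 5 of 30 (Itgb2, Arpc5, Coro1a, Msn and Myo1e), antigen presentation and costimulation genes at 3 of 25 (Cd80, Cd86 and Tnfsf18) and homeostatic microglia genes at 3 of 28 (Siglech, Golm1 and Sparc). The stronger of 2 regions by Tnfsf18 (chr1:161482208-161482626), the ligand of the costimulatory receptor GITR, had 5.85, 9.80, 7.59, 11.7 and 17.4 in MIA_LPS and 5.92 to 8.43 (median 6.45) in CON_LPS libraries. Its centred log2 difference, MIA_LPS minus CON_LPS, was 0.23. Of 28 interferon-stimulated genes, only Cxcl9 (3.57%) was nearest to a region, open in 5 of 5 MIA_LPS, 5 of 7 CON_LPS, 2 of 6 MIA_SAL and 0 of 5 CON_SAL libraries. Pfkfb3, a regulator of glycolysis, was the 1 gene of 23 in glycolysis and hypoxia (4.35%), with 2 regions. Lists and regions were both chosen with these data known, and no test of the lists was made.

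**Figure D4:**
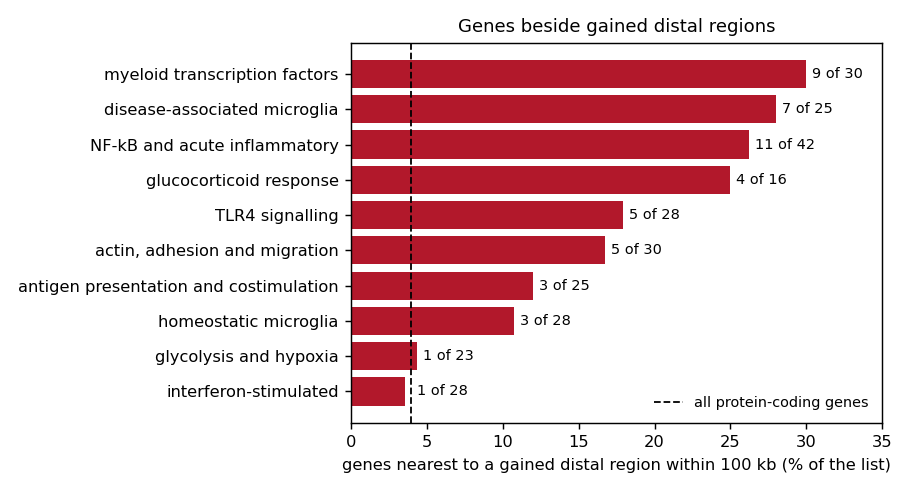
Percent of each gene list (bars, with counts) nearest to 1 or more gained distal regions within 100 kb, against 3.92% of all protein-coding genes (dashed line). The line counts all 21627 genes, of which 12230 were nearest to any distal interval. Myeloid transcription factors (30.0%), disease-associated microglia (28.0%), NF-kB and acute inflammatory (26.2%) and glucocorticoid response genes (25.0%) stand furthest right, and interferon-stimulated genes (3.57%) lie just left of the line.

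The genes beside gained regions mostly had open ends to begin with. Of the 847 genes, 566 (66.8%) had an end open in all 23 libraries, against 53.5% of 12230 genes nearest to any distal interval and 44.5% of all protein-coding genes. Only 13 (1.53%) had an end that was itself gained with LPS by the same library counts, against 0.384% and 0.287% in those sets. They were Aoah, Ccr1, Celf4, Cttnbp2nl, F13a1, Fyb, Ifi207, Lgmn, Pde4b, Rab44, Rab7b, Tmem251 and Trem1. Among them Ccr1 encodes a chemokine receptor, Trem1 an amplifier of myeloid inflammatory signalling, and Lgmn the lysosomal protease legumain.

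Gained regions lay at a median of 16740 bp from the nearest end of a protein-coding gene, against 17077 bp for all distal intervals and 13627 bp for those open in all 23 libraries. Inside a gene body lay 607 (55.6%), against 57.8% of all distal intervals. On the X chromosome were 8 regions (0.733%), against 1.00% of all distal intervals. Autosomes held between 1.57% (chromosome 18) and 2.27% (chromosome 19) of their distal intervals as gained regions. With neighbours no more than 50 kb apart, 288 regions fell into 129 stretches of 2 or more.

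The longest run of gained regions lay at Socs3, which encodes the suppressor that shuts down JAK-STAT signalling from the interleukin-6 receptor family. There, 5 regions in 36271 bp (chr11:117954146-117990416) named Socs3 and its neighbour Pgs1, among 5 other distal intervals. Of those that named Socs3, the one open in all 12 LPS libraries (chr11:117977912-117978253) had 6.81, 4.28, 4.80, 5.48 and 9.16 in MIA_LPS and 3.45 to 6.92 (median 4.84) in CON_LPS libraries, against 3.91 in 1 MIA_SAL library. Another 4 regions, at Fes, Furin and Blm (chr7:80375324-80439636) were each open in all 12 LPS libraries and in none after saline, with median fold enrichments over the LPS libraries of 3.89 to 6.09. Fes is a myeloid tyrosine kinase and Furin a proprotein convertase. Runs of 4 also lay at Notch2 (chr3:97994335-98057459) and at Fmnl2 (chr2:52891030-52956255), a formin that builds actin filaments. Regions in a run can share a regulatory domain and were not counted as independent of each other.

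A few regions stood by microRNA genes, at a share no higher than that of all distal intervals. In RefSeq's GRCm38.p6 table, 16 of 1005 hairpins lay within 10 kb of a gained region, and 15 regions (1.37%) lay that near a hairpin, against 1.49% of all distal intervals. The share was 1.86% among other distal intervals open in at least 10 LPS libraries and 2.21% among those open in all 23. Among distal intervals lost with LPS it was 0.771%. No excess near microRNAs is read from these counts. Mature strands of the closest hairpins with established functions are shown with their seeds, bases 2 to 8, in capitals.
mmu-miR-22-3p: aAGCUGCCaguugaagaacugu
mmu-miR-146b-5p: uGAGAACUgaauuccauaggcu
mmu-miR-23a-3p: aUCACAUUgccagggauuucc
mmu-miR-27a-3p: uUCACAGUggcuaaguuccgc
mmu-miR-24-3p: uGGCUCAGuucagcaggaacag
No 2 of these seeds were the same. MiR-146b targets IRAK1, a kinase, and TRAF6, a ubiquitin ligase, both of which act downstream of TLR4. A region 1506 bp from its hairpin (chr19:46340875-46341256) had 4.15, 3.71, 3.22, 6.08 and 5.25 in MIA_LPS and 3.14 to 6.73 (median 4.76) in CON_LPS libraries. In the equal lists 1 CON_LPS library and all saline libraries had no peak there. The region 1071 bp from the miR-22 hairpin (chr11:75462132-75462645) had 4.25, 2.96, 3.14, 4.56 and 4.72 in MIA_LPS and 2.24 to 4.24 (median 2.85) in CON_LPS libraries. That by the miR-23a, miR-27a and miR-24-2 cluster (chr8:84202548-84202804) had 4.71, 3.71, 3.41, 4.75 and 5.03 in MIA_LPS and 2.40 to 4.45 (median 3.02) in CON_LPS libraries. Both were open in all 12 LPS and no saline library. In the full lists the miR-146b and miR-23a regions each had a peak in 4 saline libraries, and the miR-22 region in 3. Centred log2 differences, MIA_LPS minus CON_LPS, were −0.33 at the miR-146b, 0.11 at the miR-22 and 0.12 at the miR-23a region.

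The rule did not contrast MIA_LPS with CON_LPS, and no gained region was called different between them in fold enrichment. The mean share of regions open was 94.0% in MIA_LPS and 92.2% in CON_LPS libraries, a difference of 1.82 points, and at other distal intervals the difference was 1.39 points. The rule used the same peaks and held both groups near the ceiling, since each region had to be open in at least 10 of the 12 LPS libraries, so this difference is a description and says little of how alike the groups are. It also rests on single libraries: it was 1.03, 1.19, 4.03 and 0.706 points without MIA_LPS 1, 2, 3 and 5, and 0.308, 2.77 and 0.965 points without CON_LPS 3, 4 and 7. Among libraries from fewer than 20000 sorted cells the share was 90.8% in MIA_LPS (n = 2) and 90.2% in CON_LPS (n = 4), and among the others 96.1% and 94.7% (n = 3 each). In saline libraries the difference of the means, MIA_SAL minus CON_SAL, was −0.489 points. That order did not hold within cell-number classes, with 7.49% in MIA_SAL (n = 4) and 6.08% in CON_SAL (n = 3) below 20000 cells but 2.79% and 6.92% (n = 2 each) above.

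Strength was compared with limma on log2 fold enrichment, each library centred on its median over intervals open in all 23, at 23876 intervals open in at least 10 LPS libraries. A library without a peak at an interval was left out of that interval's fit. At adjusted p under 0.05 (Benjamini-Hochberg over all intervals), 0% of intervals and 0 of 1092 gained regions were called. At unadjusted p under 0.05 there were 75 gained regions (6.87%), against 4.18% of all intervals tested. The median log2 difference, MIA_LPS minus CON_LPS, was 0.02 at gained regions and −0.008 over all intervals tested, and 617 gained regions (56.5%) against 47.2% of all intervals had a positive difference. Single differences ran from −0.37 to 0.59 with a median SE of 0.133, and the quartiles were −0.07 and 0.11. Without centring the median at gained regions was 0.304 and over all intervals 0.271, a shift of the whole library set.

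The region with the smallest p lay in Larp4b (chr13:9113669-9114071), which encodes an RNA-binding protein of the La family. Its fold enrichment was 9.59, 8.08, 10.2 and 12.9 in MIA_LPS libraries 1, 2, 4 and 5, with no peak in library 3, and 4.60 to 5.59 (median 5.04) in 6 CON_LPS libraries. The groups did not overlap there, and the difference of 0.59 ± 0.13 (log2, SE) had an adjusted p of 0.519 by limma. Next came regions in Vmp1 (0.52 ± 0.14, chr11:86602247-86602520) and 4878 bp from Mefv (0.50 ± 0.14, chr16:3723089-3723614), which encodes pyrin, the sensor of an inflammasome; both had an adjusted p of 1.0 by limma. Mefv values were 16.1, 12.3, 8.25, 13.2 and 18.6 in MIA_LPS and 4.91 to 11.2 (median 7.29) in CON_LPS libraries, and overlapped.

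**Figure D5:**
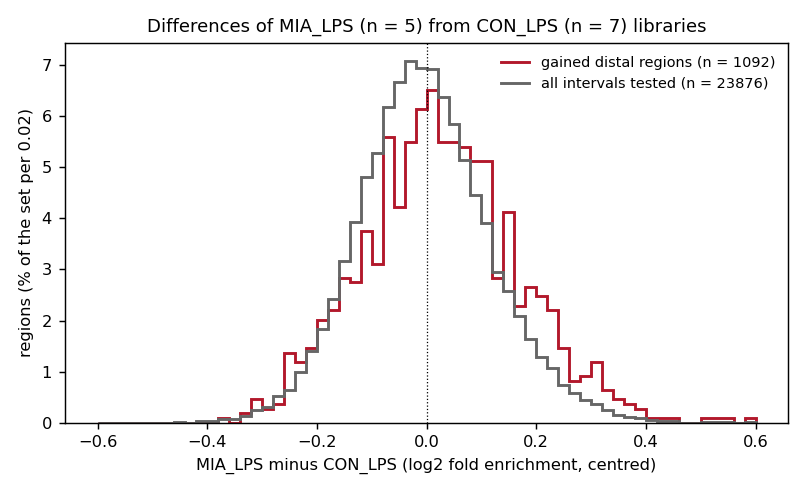
Distribution of MIA_LPS minus CON_LPS differences in centred log2 fold enrichment for the 1092 gained regions and all 23876 intervals tested, as percent of each set per bin of 0.02. Both curves centre near 0, with medians of 0.02 and −0.008, and no interval passed the adjusted threshold.

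Presence of a peak was compared with Fisher's exact test, two-sided, over intervals whose margin allowed a p of 0.01 or less. After LPS 0 of 3585 intervals were called (0%; 118 had an unadjusted p under 0.05) and after saline 0 of 3892 (0%; 30 unadjusted). No gained region entered either test, because the smallest exact p that its library counts could give was 0.152 after LPS and 0.182 after saline.

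The rule's thresholds lay in a continuous range, and the set depends on the length of the lists: with lists of 0.5 times the length 490 regions met the rule, overlapping 84 of the 1092. Just inside were 310 regions open in 10 LPS libraries, with a median fold enrichment of 5.40, and 240 open in 2 saline libraries, with 5.66. Just outside were 314 distal intervals open in 9 LPS libraries, with 5.26, and 212 open in 3 saline libraries, with 5.82. Examples inside were regions near Dner and Zbtb32 (10 LPS libraries) and near Scarb2 and Id3 (2 saline libraries). An interval in Pfkfb3 (chr2:11529759-11530653) stood just outside with 3 saline libraries open, although its fold enrichment of 9.90, 7.38, 8.41, 9.12 and 13.9 in MIA_LPS and 5.35 to 10.3 (median 7.96) in CON_LPS libraries had medians above those of both gained regions of the same gene.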

How the data were processed

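ATAC-seq peak lists of 23 libraries were used, 1 per library. The authors deposited each peak's fold enrichment (a ratio over local background), its −log10 p and −log10 q, a summit offset and a score, which was not used; the peak caller is not given in the file headers. Per the submitters' processing notes the tools were cutadapt, Bowtie2, Picard, SAMtools, MACS2 and DiffBind and the builds mm10 and GRCm38, without versions or roles. The lists hold no read counts, so depth is unknown and no counting interval is given.

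An equal number of top peaks per list by −log10 p, just under the 33949 of the shortest list, was merged (1 shared base). Gene ends, start windows and microRNAs came from RefSeq GRCm38.p6; of 336 listed gene symbols 332 matched. The strongest peak stood for a library at an interval. Groups came from the labels. MIA_LPS and CON_LPS were compared by limma 3.58.1 (R 4.3.3, trended eBayes) on log2 fold enrichment, with no pseudocount since missing peaks were left missing, and by Fisher's exact test on presence (SciPy 1.17.1), both with Benjamini-Hochberg adjustment at 0.05. The limma step was tested on simulated data. Named regions were those described as the 12 leading ones, the best 3 by rank for each list, the longest runs, and examples beside each threshold; no region was called, so none was named on that ground, and the 3 of smallest p and the microRNA and start-window regions were chosen after their values were seen. The members and gene lists were chosen with earlier results of these data known. Sequences at region summits were not used here. Alternatives covered the peak ranking and number, windows, library thresholds, gene-end distance, centring, filters, blocks and leaving out libraries.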

Additional observations from a re-analysis of the deposited data

Results flagged for a closer look

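In 48 groups of 5 to 7 libraries tested for a value apart from the rest, 3 stood out, and chance alone flags about 1 group in 20. The library CON_SAL 3 was open at 3.48% of the gained regions, below the other CON_SAL libraries (6.78% to 7.42%). In its full list MIA_LPS 3 had a peak at 85.2% of the gained regions, below the other MIA_LPS libraries (99.4% to 100%), and its list was the shortest of all with 33949 peaks. The median fold enrichment of the gained regions open in MIA_SAL 2 was 7.88, above the other MIA_SAL libraries (3.85 to 4.84). At distal intervals open in all 23 libraries MIA_SAL 2 was likewise highest, with 13.4 against 6.08 to 8.87. That library was open at 1.65% of the regions and had the longest list, with 68312 peaks. In the lists of equal length MIA_LPS 3 was also open at 85.2%, and the other MIA_LPS libraries at 92.6% to 98.4%. Its share thus did not rise from the equal to the full list, while theirs did. The part of list length in these values was not tested.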

How the results depend on the processing

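The number of gained regions was 1092 under the rule and stayed within 1.5 times of it with all deposited peaks (832, of which 480 of the 1092 were shared), peaks ranked by fold (953), windows of 0.501 kb around summits (1152) and gene ends at 5 kb (899). It was 490 with lists of 0.5 times the length, overlapping 84 of the 1092, and 689 at −log10 q of at least 5, overlapping 622. It was 232 at 12 of 12 and 0 of 11 libraries, and 1679 at 9 and 3. Leaving out libraries, with at most 2 LPS libraries closed and 2 saline libraries open, relaxes the rule by construction: the count was 1814 without identity numbers 1 to 3 and 1120 to 1241 without each library in turn. The 1.82-point difference in the share open was 1.47 with all deposited peaks and 0.308 (without CON_LPS 3) to 4.03 (without MIA_LPS 3) on leaving out each library. No alternative called an interval by limma or by Fisher's exact test. The median log2 difference of gained regions was 0.304 without centring, 2.75 percentile points as ranks, and 0.003 to 0.034 without each library. Larp4b kept its direction, with an adjusted p by limma of 0.0557 (no centring) to 1.0. With the replicate number as a block 0 regions were called and the median was 0.027; deviations of same-numbered MIA_LPS and CON_LPS libraries correlated at −0.137 to 0.306, and 2 of 5 MIA_LPS libraries correlated best with their own number, and the numbers were not taken as pairs. Leaving identity numbers 1 to 3 out of the limma fit was chosen after seeing the data and called 0. The lack of read counts limits all of this.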

Other observations

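Of the gained regions, 99 (9.07%) lay more than 100 kb from any end of a protein-coding gene, against 11.4% of all distal intervals and 17% of the distal intervals lost with LPS. Several gathered by single genes. Of these, 6 had Id2, an inhibitor of basic helix-loop-helix factors, as their nearest gene, at 152569 to 420456 bp, with median fold enrichments over the LPS libraries of 4.89 to 8.72 and at most 2 saline libraries open. Another 3 had Slc7a11, the cystine transporter that feeds glutathione synthesis, at 106585 to 237909 bp, with 5.22 to 6.27 and no saline library open. Pairs of such regions had Myc (106215 and 402086 bp), Btg1, Cited2, Foxo1 and Trib1 as their nearest genes, and both members of the Myc, Btg1 and Cited2 pairs were open in all 12 LPS libraries. These genes were picked after their values were seen.

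Some genes were nearest to gains and losses alike. The nearest genes of gained and of lost distal regions within 100 kb shared 27 names, among them Marcks, Lmna, Cmklr1, Ctsd and Golm1. These were 3.19% of 847 genes with gained and 8.97% of 301 genes with lost regions. Only a gene nearest to a distal interval can be counted, and 847 of 12230 such genes had a gained region. Over all protein-coding genes the share was 3.92%, a lower base. No excess is read from the overlap.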
